A study of Mus musculus with 12 samples.

Results

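Transcripts of 5 subunits of the phagocyte NADPH oxidase, Ncf1, Ncf4, Cyba, Cybb and Rac2, were followed in regulatory T cells (Tregs) of mice with and without the transketolase gene Tkt. They are 5 of the 17955 genes in the deposited table, found by gene symbol, and all 5 were among the 12903 genes with enough counts to be tested. Ncf1 was chosen by its measured level, which was higher in knockout Tregs, and the other 4 because they belong to the same enzyme complex. The difference between the genotypes with vehicle is therefore given as a description with no test, and the difference of Ncf1 with DMαKG may also have been used in its choice. The subunits and all gene lists were chosen with results of these libraries known.

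The cells were CD4+CD25+YFP+ T cells, flow-sorted from spleen and lymph node of C57BL/6 mice 7 weeks old. The 4 groups were Foxp3YFP-cre TKT fl/fl mice (cKO) given DMαKG, Foxp3YFP-cre TKT+/+ mice (WT) given DMαKG, cKO mice given vehicle and WT mice given vehicle, with 3 mice in each. DMαKG, dimethyl α-ketoglutarate, is a cell-permeable ester of a citric acid cycle intermediate, and it was supplied in the drinking water from pregnancy to adulthood. The Cre recombinase and the yellow fluorescent protein are expressed with Foxp3, so deletion is directed to Foxp3-expressing cells, and WT mice carry the same Cre allele. P-values rest on 3 mice per group.

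The phagocyte NADPH oxidase moves electrons from NADPH across a membrane to oxygen and so makes superoxide. Its catalytic core in the membrane is gp91phox, encoded by Cybb, which is stabilised by p22phox, encoded by Cyba. On activation cytosolic proteins, among them p47phox (Ncf1) and p40phox (Ncf4), move to this core together with a Rac GTPase, with p47phox as the organiser that bridges to p22phox. Mutations of the phox subunits cause chronic granulomatous disease, and the complex is best known from neutrophils and macrophages, with lower levels of several subunits described in lymphocytes.

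Summed estimated counts ran from 15700000 to 18900000 per library. Tkt lay between 26.2 and 41.8 CPM (counts-per-million values on TMM-scaled library sizes) in the 6 cKO libraries, against 102 to 194 CPM in the 6 WT libraries. The Treg-defining gene Foxp3 averaged 419 CPM in cKO and 435 CPM in WT Tregs with DMαKG, and 385 CPM in cKO and 368 CPM in WT Tregs with vehicle. Y-linked transcripts were low in replicates 1 and 3 of cKO with DMαKG and replicate 3 of WT with vehicle, and intermediate in replicate 2 of WT with DMαKG. The labels used here give no sex. On the first principal component, which held 29.0% of the variance, replicate 3 of cKO with DMαKG stood at one end and 3 libraries together at the other. These were replicate 3 of WT with DMαKG and replicate 4 of both vehicle groups, and results without them are given with the processing alternatives.

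Ncf1 (gene 17969) lies on chromosome 5 (134220053 to 134229628), Cyba (gene 13057) on chromosome 8 (122424771 to 122432940) and Cybb (gene 13058) on the X chromosome (9435252 to 9487766). Ncf4 (gene 17972; 78244164 to 78262582) and Rac2 (gene 19354; 78559169 to 78572783) lie on chromosome 15. Coordinates are of GRCm38.p6 in RefSeq, the build that the submitters' notes call mm10.

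RefSeq promoter windows on GRCm38.p6 were matched for Ncf1, Cyba and Cybb. Those of Ncf1 and Cybb are shown because these subunits had the largest differences between the genotypes, in opposite directions. Each window runs 5′ to 3′ on the minus strand, from 250 bases before the start to 30 bases after it, at chr5:134229596-134229875 for Ncf1 and chrX:9469295-9469574 for Cybb. Capitals mark matches to the motifs searched. The Cybb start used by RefSeq here lies inside the annotated span of the gene.
Ncf1: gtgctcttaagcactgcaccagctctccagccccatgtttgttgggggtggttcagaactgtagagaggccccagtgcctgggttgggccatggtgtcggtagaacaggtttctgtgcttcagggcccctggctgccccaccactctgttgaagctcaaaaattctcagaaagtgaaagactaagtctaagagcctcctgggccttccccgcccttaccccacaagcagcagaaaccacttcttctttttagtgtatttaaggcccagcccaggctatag
Cybb: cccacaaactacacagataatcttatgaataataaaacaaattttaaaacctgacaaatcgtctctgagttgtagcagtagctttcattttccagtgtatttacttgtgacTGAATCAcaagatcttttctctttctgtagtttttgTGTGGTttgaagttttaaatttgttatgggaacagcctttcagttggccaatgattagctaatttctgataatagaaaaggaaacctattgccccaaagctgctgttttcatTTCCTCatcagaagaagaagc
The motifs, searched on both strands, were GAGGAA (the core bound by the myeloid and B cell factor PU.1), TGANTCA (AP-1), GTAAACA (forkhead factors such as Foxp3), TGTGGT (RUNX) and TGANNNNGC (the antioxidant response element core bound by NRF2). The Cybb window held the AP-1 letters, the RUNX letters and, read on the opposite strand, the PU.1 core letters. The Ncf1 window held none of the 5. Of 14206 promoter windows, 25.3% held the PU.1 core letters, 5.72% the AP-1 letters, 2.48% the forkhead letters, 12.9% the RUNX letters and 40.4% the antioxidant element letters. These matches describe letters only and say nothing of binding.

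Per transcript length, the subunits fell into a wide order of levels. Rac2 averaged 762 TPM (transcripts-per-million values, scaled for length) over the 12 libraries, Cyba 433 TPM, Ncf4 115 TPM, Ncf1 26.6 TPM and Cybb 22.7 TPM. The ranges over libraries did not overlap among Rac2 (594.7 to 854.94 TPM), Cyba (375.33 to 505.43 TPM) and Ncf4 (89.75 to 131.37 TPM). Those of Ncf1 (14.23 to 54.84 TPM) and Cybb (9.74 to 40.86 TPM) did overlap, and their order depended on genotype. The highest library exceeded the lowest 3.85-fold for Ncf1 and 4.20-fold for Cybb, but 1.46-fold for Ncf4, 1.35-fold for Cyba and 1.44-fold for Rac2.

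**Figure D1:**
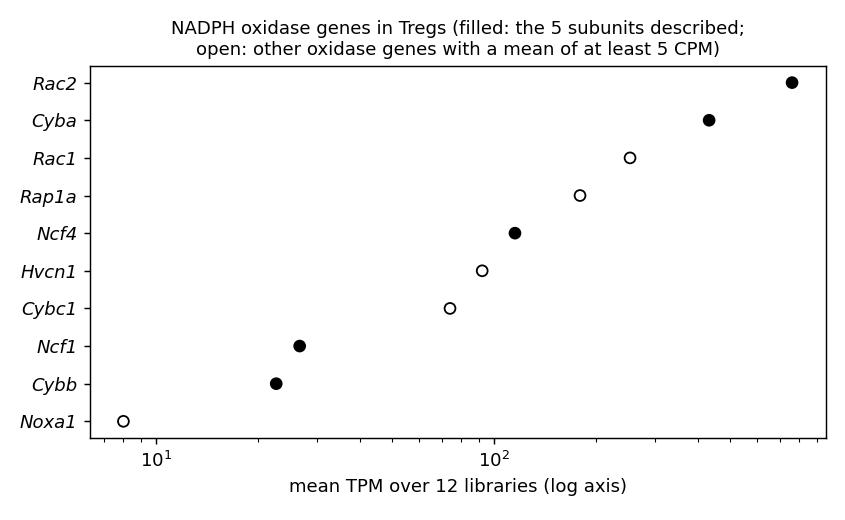
Mean TPM over the 12 libraries (log axis) of the 5 subunits (filled) and of the other oxidase family genes with a mean of at least 5 CPM (open), from the highest at the top. Rac2 and Cyba lead at 762 and 433 TPM, and Ncf1 and Cybb lie together at 26.6 and 22.7 TPM.

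Ncf1, the organiser p47phox, was higher in every cKO library than in every WT library, with either treatment. This is the rise for which it was chosen, and 7.92% of all genes had every cKO library above every WT library with DMαKG and 8.29% with vehicle. With DMαKG it was at 32.1, 36.2 and 37.4 CPM in cKO Tregs, against 18.7, 18.9 and 18.8 CPM in WT Tregs. Vehicle libraries held 63.0, 52.0 and 53.9 CPM in cKO Tregs, against 21.96, 16.2 and 23.0 CPM in WT Tregs. The 3 cKO libraries with DMαKG thus lay between the cKO libraries with vehicle and all 6 WT libraries, without overlap on either side. The group means were 35.2 ± 2.80 CPM for cKO with DMαKG, 18.8 ± 0.10 CPM for WT with DMαKG, 56.3 ± 5.87 CPM for cKO with vehicle and 20.4 ± 3.68 CPM for WT with vehicle (SD, n = 3 each).

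With DMαKG, Ncf1 was higher in cKO Tregs by 0.90 on the log2 scale (SE 0.14, 95% interval 0.60 to 1.21, 1.87-fold), with an adjusted p of 0.0415 in edgeR's quasi-likelihood test, Benjamini-Hochberg adjusted over all genes tested. The choice of Ncf1 named a rise in the knockout without naming a treatment, and was made with all 12 libraries known. If it used the DMαKG libraries, this p tests again the rise that selected the gene, so it is given as a description and not as independent support. The vehicle libraries also enter the p through the shared spread. In this comparison 24 genes passed, or 0.186% of all tested, and those higher in cKO Tregs were 0.163% of all tested. The adjusted p was above 0.05 without any 1 of the 6 DMαKG libraries. It was 0.146, 0.138 and 0.199 without replicates 1, 2 and 3 of WT with DMαKG, and 0.0942, 0.0812 and 0.0581 without replicates 1, 2 and 3 of cKO with DMαKG. It was also above 0.05 without 3 of the vehicle libraries, at 0.0676 without replicate 2 of WT, 0.0522 without replicate 4 of WT and 0.0666 without replicate 3 of cKO. Without replicate 3 of WT with vehicle or replicate 2 or 4 of cKO with vehicle it was 0.0270, 0.0330 and 0.0452. The size of the difference stayed between 0.86 and 0.99 throughout these 12 fits.

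The vehicle difference of Ncf1, which is taken as used in the choice of the gene, was 1.47 on the log2 scale (SE 0.14). The ratio of the means was 2.77, set against 1.87 with DMαKG, which may also have been used. The genotype difference with DMαKG minus that with vehicle was -0.56 (SE 0.20), and -0.36 with the level of Y-linked transcripts as a covariate, a value that shares its vehicle libraries with the choice of the gene and so carries no test. Within cKO Tregs, Ncf1 was lower in every library with DMαKG than in any with vehicle (log2 difference -0.68, SE 0.14), as 12.2% of all genes were. Within WT Tregs the treatments overlapped (log2 difference -0.11, SE 0.14). The Ncf1 mean of cKO Tregs with DMαKG was 1.73 times that of WT Tregs with vehicle.

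**Figure D2:**
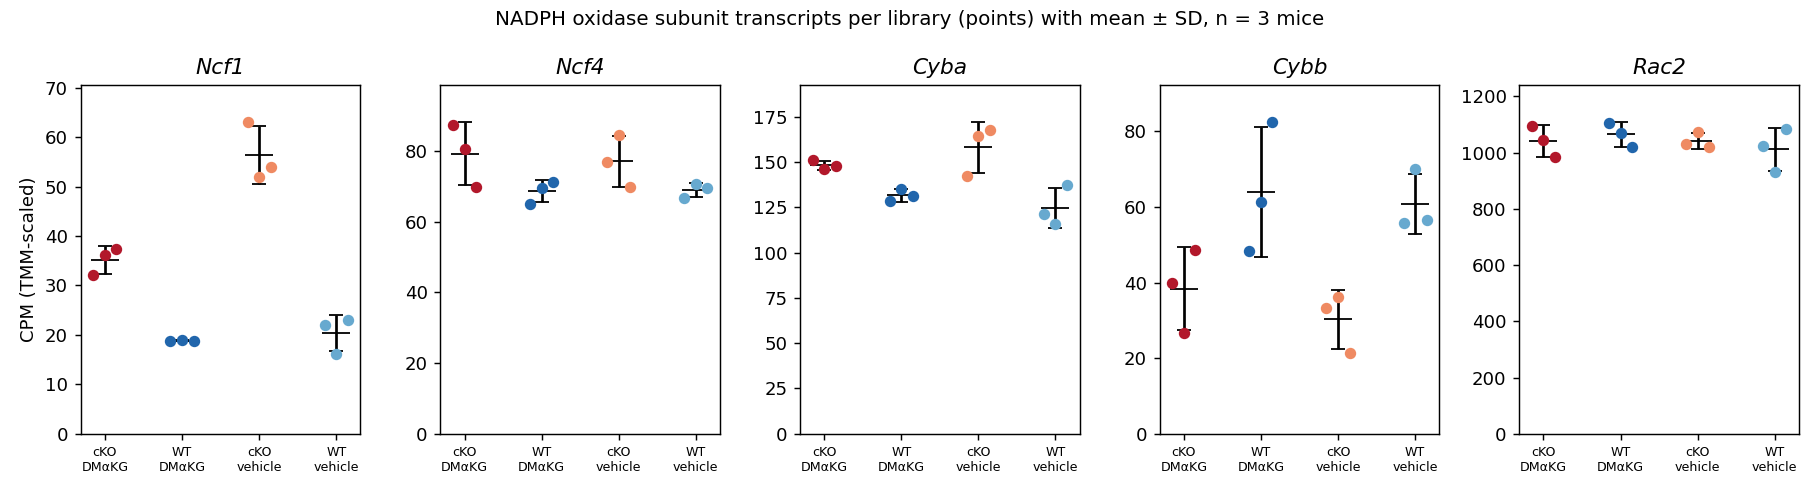
CPM of each subunit, 1 point per library, with the mean and SD of 3 mice as bars; the groups run from cKO with DMαKG to WT with vehicle. All Ncf1 points of cKO Tregs lie above all those of WT Tregs, Cybb shows the opposite order with vehicle, and Rac2 overlaps in every group.

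The Ncf1 values carry a limit from the annotation. In GENCODE M21, 408 of the 3663 exon bases of Ncf1 are shared with Gtf2ird2, a transcription factor gene on the opposite strand, and the sources used here do not say whether reads were counted by strand. In RefSeq the 2 genes do not overlap and lie 1907 bases apart. RefSeq instead places a long non-coding RNA gene, LOC115490142, over 2419 bases of the Ncf1 span. LOC115490142 is not in the deposited table. Gtf2ird2 was at 14.4, 17.7 and 13.9 CPM in cKO and 17.2, 15.4 and 23.5 CPM in WT Tregs with DMαKG. Its vehicle values were 22.2, 23.1 and 19.8 CPM in cKO and 22.6, 19.0 and 19.9 CPM in WT Tregs. Between the genotypes it did not follow the order of Ncf1, with a log2 difference between cKO and WT of -0.29 with DMαKG (adjusted p 0.587, edgeR) and 0.08 with vehicle (adjusted p 0.975). Within cKO Tregs, Gtf2ird2 was lower in every library with DMαKG than in any with vehicle, as Ncf1 was. The share of all genes with this order was 12.2%. The part of shared exon bases in the Ncf1 values was not tested. The estimated counts of Ncf1 were not whole numbers in any of the 12 libraries of the table, as for Rac2. Neither Rcc1l nor Gtf2i nor Gtf2ird1, the other nearest tested genes, passed the test, with log2 differences of 0.30, -0.09 and 0.35 with DMαKG and 0.21, 0.18 and 0.15 with vehicle.

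Ncf4, the cytosolic p40phox that binds phosphoinositides on phagosome membranes, overlapped between the genotypes. It was at 87.4, 80.4 and 69.7 CPM in cKO and 65.1, 69.6 and 71.2 CPM in WT Tregs with DMαKG. In vehicle libraries it was at 76.8, 84.5 and 69.8 CPM in cKO and 66.7, 70.6 and 69.4 CPM in WT Tregs. Replicate 3 of cKO with DMαKG and replicate 4 of cKO with vehicle lay within the WT range of their treatment. The log2 difference was 0.21 with DMαKG (95% interval -0.03 to 0.45, adjusted p 0.548, edgeR) and 0.16 with vehicle (SE 0.11).

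Cybb, the catalytic gp91phox, had lower means in cKO Tregs, the reverse of Ncf1. With DMαKG it was at 39.8, 26.7 and 48.6 CPM in cKO Tregs, against 48.4, 61.2 and 82.4 CPM in WT Tregs. Under vehicle it was at 33.1, 36.1 and 21.5 CPM in cKO Tregs, against 55.8, 69.9 and 56.6 CPM in WT Tregs. With vehicle every cKO library lay below every WT library, and with DMαKG the genotypes touched, replicate 3 of cKO being just above replicate 1 of WT. The means were 38.4 ± 11.03 CPM in cKO and 64.0 ± 17.2 CPM in WT Tregs with DMαKG, and 30.2 ± 7.74 CPM in cKO and 60.8 ± 7.91 CPM in WT Tregs with vehicle (SD, n = 3 each).

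The log2 difference of Cybb with DMαKG was -0.74 (SE 0.25, 95% interval -1.28 to -0.19) and did not pass the test (adjusted p 0.331, unadjusted p 0.0118, edgeR), where 10.4% of all genes had an unadjusted p under 0.05. With vehicle the log2 difference was -1.01 (SE 0.25), with no test, and 7.01% of all genes had every cKO library below every WT library there. The ratio of the cKO to the WT mean was 0.600 with DMαKG and 0.497 with vehicle. The coefficient of variation of Cybb was 28.7% in cKO and 26.8% in WT Tregs with DMαKG, and 25.6% in cKO and 13.01% in WT Tregs with vehicle.

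Cyba, the membrane partner p22phox, had higher means in cKO Tregs. It was at 150.9, 146.0 and 147.8 CPM in cKO and 128, 135 and 131 CPM in WT Tregs with DMαKG. Given vehicle, the libraries were at 142, 165 and 167 CPM in cKO and 121, 116 and 137 CPM in WT Tregs. Every cKO library lay above every WT library of the same treatment, as for the shares of all genes given for Ncf1. The log2 difference of 0.17 with DMαKG (SE 0.10, 95% interval -0.05 to 0.39) did not pass (adjusted p 0.584, edgeR), and with vehicle it was 0.34 (SE 0.10). The ratio of means was 1.13 with DMαKG and 1.27 with vehicle.

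Rac2, the haematopoietic Rac GTPase that also serves the cytoskeleton of T cells, had overlapping libraries in all groups. It was at 1096, 1045 and 985 CPM in cKO and 1105, 1070 and 1019 CPM in WT Tregs with DMαKG. Vehicle gave 1032, 1075 and 1021 CPM in cKO and 1025, 930 and 1082 CPM in WT Tregs. It averaged 1042 ± 55.8 CPM in cKO and 1065 ± 43.1 CPM in WT Tregs with DMαKG, and 1043 ± 28.3 CPM in cKO and 1013 ± 76.7 CPM in WT Tregs with vehicle (SD, n = 3 each). Its log2 difference between cKO and WT with DMαKG was -0.03, with a 95% interval of -0.27 to 0.21 (adjusted p 0.939, edgeR), and with vehicle it was 0.04 (SE 0.11).

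**Figure D3:**
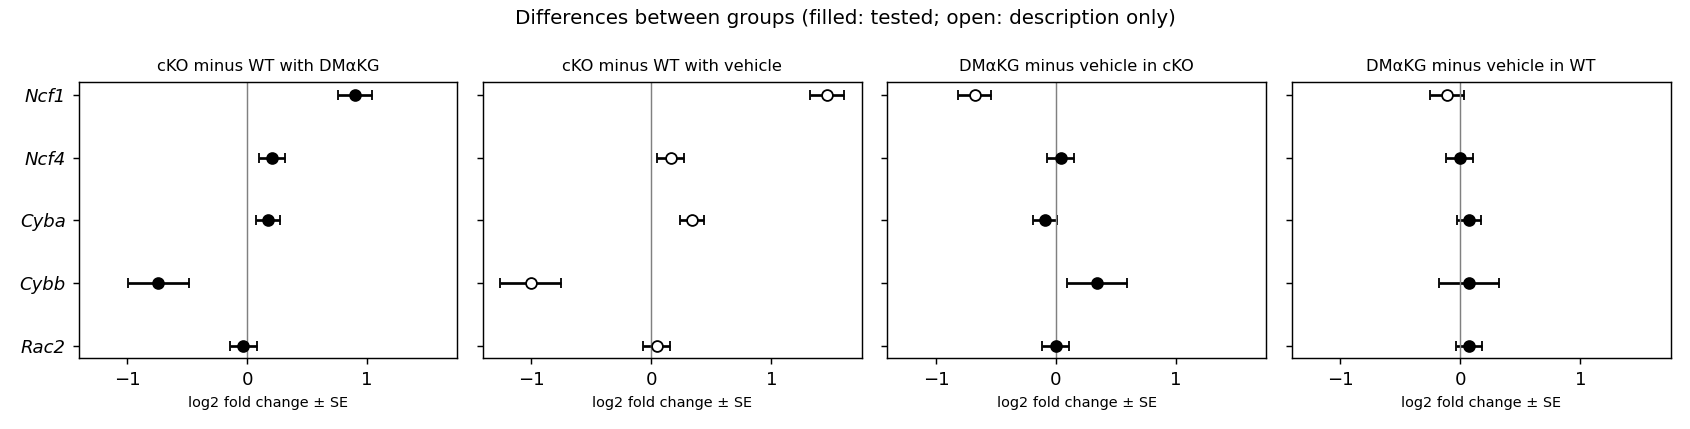
Log2 fold change with its SE for each subunit in the genotype comparisons (cKO minus WT) and the treatment comparisons (DMαKG minus vehicle); filled points were tested and open points are descriptions; the Ncf1 point with DMαKG is filled, though its choice may have used that rise. Ncf1 and Cybb lie on opposite sides of 0 in both genotype comparisons, at 0.90 and -0.74 with DMαKG.

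In the DMαKG genotype comparison 1 of the 5 subunits, Ncf1, had an adjusted p under 0.05, with the limit on its choice given above, and 2, Ncf1 and Cybb, had an unadjusted p under 0.05. DESeq2's Wald test, which called 1.11% of all genes, and limma voom, which called 1.84%, each also called Ncf1 and no other subunit. For the treatment within a genotype, and for the difference between the genotype effects, 0 of Ncf4, Cyba, Cybb and Rac2 passed with edgeR, and 0 of them had an unadjusted p under 0.05 or passed with DESeq2 or voom. Across all genes edgeR called 0% in these 3 comparisons, and 17.3% had an unadjusted p under 0.05 for DMαKG in cKO Tregs, 2.73% in WT Tregs and 3.64% for the interaction. For DMαKG in cKO Tregs DESeq2 called 3.34% of all genes and voom 3.49%, for DMαKG in WT Tregs 0.0155% and 0.062%, and for the interaction 0.00775% each. For DMαKG against vehicle in cKO Tregs, Cybb had the largest difference of these 4, 0.34 on the log2 scale with a 95% interval of -0.20 to 0.89 (adjusted p 0.479). The intervals of Ncf4, Cyba and Rac2 in that comparison lay between -0.31 and 0.28. In WT Tregs the 4 differed by -0.01 to 0.08, and the widest interval, that of Cybb, ran from -0.46 to 0.61. The interaction of Cybb was 0.27 (95% interval -0.50 to 1.04, adjusted p 0.955).

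Per length, the order of Ncf1 and Cybb differed with genotype. Ncf1 exceeded Cybb in TPM in 6 of 6 cKO libraries and in 0 of 6 WT libraries. With DMαKG the ratio of Ncf1 to Cybb was 1.42, 2.38 and 1.35 in cKO Tregs, against 0.681, 0.543 and 0.401 in WT Tregs. The vehicle libraries gave 3.34, 2.53 and 4.42 in cKO Tregs, against 0.692, 0.406 and 0.712 in WT Tregs. The ratio uses the rise of Ncf1 in the knockout, for which the gene was chosen, so it is a description. Across the 12 libraries the correlation of Ncf1 and Cybb in log2 CPM was -0.83 and that of Ncf1 and Cyba 0.83, but with each group's mean removed they were -0.15 and 0.11.

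**Figure D4:**
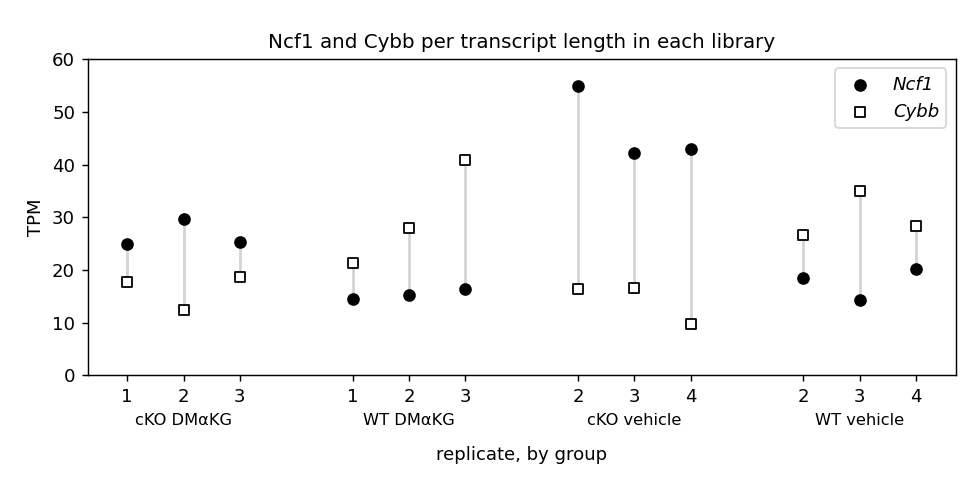
TPM of Ncf1 (filled circles) and Cybb (open squares) in each library, joined by a line and ordered by group and replicate. Ncf1 is the upper point in all 6 cKO libraries and Cybb in all 6 WT libraries.

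In bulk RNA of a sorted population, fewer cells of a type and less RNA per cell cannot be told apart, and Cybb is abundant in myeloid cells. The summed level of 14 macrophage and monocyte marker genes was 104, 98.2 and 252 CPM in cKO and 156, 242 and 92.8 CPM in WT Tregs with DMαKG. The sum with vehicle was 53.0, 133 and 93.0 CPM in cKO and 264, 231 and 172 CPM in WT Tregs. The markers were thus lower in every cKO library with vehicle, where 13 of the 14 were lower (median log2 difference -1.08, over all genes 0.01), and overlapped with DMαKG, where 4 of the 14 were lower (median 0.10, over all genes -0.00). None of the 14 was at 0 in all libraries, and 1, Cd14, was at 0 in some library. With edgeR 0 of the 14 passed in either comparison. At an unadjusted p under 0.05 there were 1 with DMαKG and 2 with vehicle, where the shares of all genes were 10.4% and 7.29%. Ccr2, a chemokine receptor that Tregs also express, was called in both comparisons by DESeq2 and by voom. Ccr2 averaged 14.5 CPM in cKO and 37.4 CPM in WT Tregs with DMαKG, within mean sums of 151 and 164 CPM. With vehicle Ccr2 averaged 15.4 CPM in cKO and 68.0 CPM in WT Tregs, within mean sums of 92.9 and 222 CPM.

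Replicate 3 of WT with DMαKG had the highest Cybb level of the 12 libraries and the lowest macrophage and monocyte marker sum of its group. In each cKO group, in contrast, replicate 3 had both the highest Cybb level and the highest marker sum of its group. In WT with vehicle, replicate 3 had the highest Cybb level and replicate 2 the highest marker sum. Ncf1 was highest in the cKO libraries with vehicle, which hold the lowest marker sum of all libraries. The sums of the other lists ranged, for cKO and WT with DMαKG and then cKO and WT with vehicle, as follows. Neutrophil markers (12 genes) lay at 16.5 to 60.2, 15.2 to 18.4, 13.1 to 16.1 and 16.5 to 21.8 CPM. Dendritic cell markers (11 genes) lay at 41.8 to 55.3, 48.7 to 52.7, 43.8 to 53.4 and 54.8 to 93.0 CPM. With vehicle both sums were thus lower in every cKO library than in every WT library, as Cybb was. Of the 6 neutrophil markers tested, however, 3 were higher and 3 lower in cKO Tregs with vehicle (median log2 difference 0.09). Of the neutrophil sum with vehicle, Cxcr2 held 8.51 CPM in cKO and 10.7 CPM in WT Tregs on average, and Mmp9 2.09 and 4.62 CPM. Of the dendritic sum, Bst2, which is not restricted to dendritic cells, held 32.0 CPM in cKO and 32.5 CPM in WT Tregs with vehicle on average. Of the 8 dendritic markers tested, 7 were lower in cKO Tregs with vehicle (median log2 difference -1.46), among them Siglech, at 1.39 CPM in cKO and 11.2 CPM in WT Tregs (log2 difference -3.00, adjusted p 0.277, edgeR). With DMαKG 6 of the 8 were lower (median -0.04). B cell markers (10 genes) lay at 23.2 to 54.9, 19.3 to 28.2, 15.9 to 28.4 and 16.8 to 30.5 CPM. Replicate 3 of cKO with DMαKG held the highest neutrophil and B cell sums, and its Ncf1 level of 37.4 CPM was close to the 36.2 CPM of replicate 2. CD8 T and NK cell markers (7 genes) lay at 26.5 to 33.7, 21.4 to 24.5, 23.9 to 25.4 and 21.7 to 30.8 CPM. With DMαKG this sum was thus higher in every cKO library than in every WT library, as Ncf1 was. Of the 5 tested, 5 were higher in cKO Tregs with DMαKG (median log2 difference 0.28) and 2 with vehicle (median -0.02). Of the 10 B cell markers, 10 were higher with DMαKG (median 0.35) and 2 with vehicle (median -0.28). The part of these cells in the Ncf1 difference was not tested. The 6 Treg markers, none at 0 in any library, summed to 5365 to 6094 CPM in cKO and 4026 to 5169 CPM in WT Tregs with DMαKG, without overlap. With vehicle they summed to 3516 to 4327 CPM in cKO and 3957 to 4044 CPM in WT Tregs. Of the 6, however, 2 were higher and 4 lower in cKO Tregs with either treatment. Their median log2 difference was -0.07 with DMαKG and -0.01 with vehicle. Ctla4, an inhibitory receptor, averaged 2425 CPM in cKO and 1319 CPM in WT Tregs with DMαKG (log2 difference 0.88, adjusted p 0.478, edgeR). With edgeR 0 members of these lists passed in either genotype comparison. At an unadjusted p under 0.05 with DMαKG there were 2 of 6 neutrophil genes tested, 3 of 8 dendritic, 1 of 10 B cell, 1 of 5 CD8 T and NK and 0 of 6 Treg genes. With vehicle there were 1 of 6 neutrophil and 6 of 8 dendritic genes, and 0 of the others. Over all genes the shares at that p were 10.4% with DMαKG and 7.29% with vehicle. DESeq2 called Ccr9 with DMαKG and Siglech and Xcr1 with vehicle, all from the dendritic cell list, and voom called Xcr1 with vehicle. The part of myeloid and dendritic cells in the Cybb difference was not tested.

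**Figure D5:**
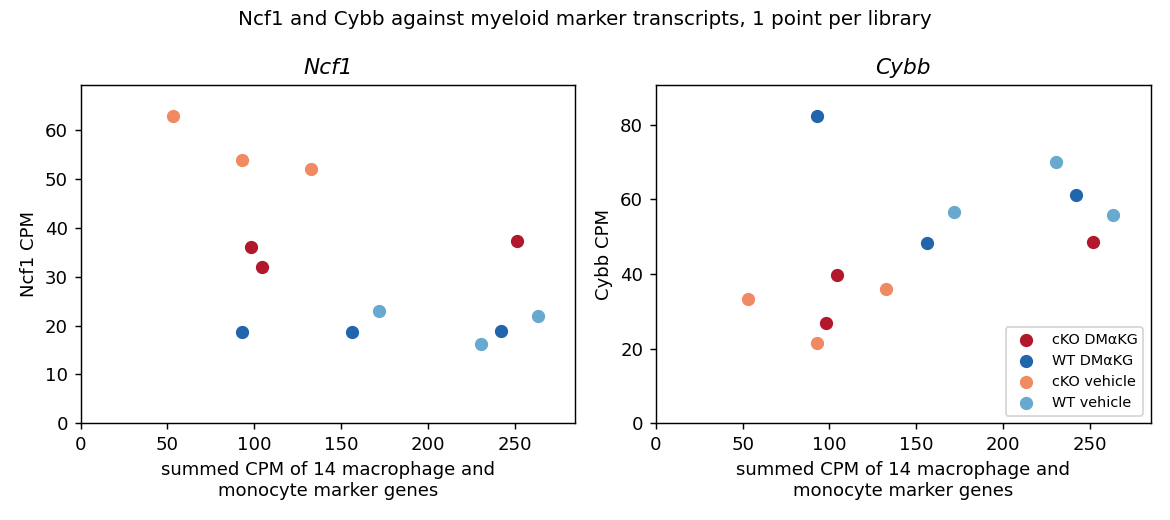
CPM of Ncf1 (left) and Cybb (right) against the summed CPM of 14 macrophage and monocyte marker genes, 1 point per library, coloured by group. The sum includes Ccr2, which Tregs also express. Cybb and the markers are both low in cKO libraries with vehicle. The WT library with DMαKG at 82.4 CPM of Cybb has a marker sum of 92.8 CPM. The cKO library with DMαKG at 48.6 CPM of Cybb, the highest of its group, has a marker sum of 252 CPM, also the highest there.

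The remaining genes of the oxidase family were present at very different levels. Rac1, the ubiquitous Rac GTPase, averaged 253 TPM, Rap1a, a small GTPase that copurifies with the flavocytochrome, 180 TPM, and Hvcn1, the proton channel that balances the charge the oxidase moves, 92.2 TPM. Cybc1, the chaperone needed to make gp91phox and p22phox, averaged 74.1 TPM. Its group means were 57.95 CPM in cKO and 72.6 CPM in WT Tregs with DMαKG, and 91.4 CPM in cKO and 91.7 CPM in WT Tregs with vehicle, and the log2 difference of -0.66 between DMαKG and vehicle in cKO Tregs did not pass (adjusted p 0.210, edgeR). Noxa1 and Noxo1, the activator and organiser of the epithelial oxidase Nox1, averaged 8.0025 and 2.59 TPM, while Nox1 itself and Rac3 averaged under 1 CPM. The epithelial oxidases Duox1 and Duox2 were at 0 in 10 and 11 libraries, and the maturation factor Duoxa2 in all 12.

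Of 15 family genes 9 were tested, and 0 passed with edgeR, DESeq2 or voom in any of the 5 comparisons. Only 1 had an unadjusted p under 0.05 in edgeR, in DMαKG against vehicle within cKO Tregs, where 17.3% of all genes did. The median log2 difference between cKO and WT was -0.01 with DMαKG, where 4 were higher and 5 lower, and 0.07 with vehicle, where 6 were higher and 3 lower, against -0.00 and 0.01 over all genes tested. With vehicle 0.062% of all genes passed between the genotypes with edgeR, 7.29% had an unadjusted p under 0.05, and 0.775% passed with DESeq2 and 1.9% with voom.

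Upstream, the 16 regulators of oxidase assembly (protein kinases, exchange factors of Rac and Ras GTPases, GDP-dissociation inhibitors and the phospholipase gene Pla2g4a) also had 0 calls with edgeR in the 5 comparisons, with 1 gene at an unadjusted p under 0.05 in each. The shares of all genes at that p were 10.4% and 7.29% between the genotypes with DMαKG and with vehicle. They were 17.3% and 2.73% for DMαKG in cKO and WT Tregs, and 3.64% for the interaction. With DMαKG 4 were higher and 12 lower in cKO Tregs (median log2 difference -0.07), and with vehicle 9 were higher and 7 lower (median 0.03). Prkcq, the protein kinase C of the T cell synapse, was the member that other tools called. It had a log2 difference of -0.31 between cKO and WT with DMαKG (adjusted p 0.315, edgeR), called by voom alone, and of -0.34 between DMαKG and vehicle in cKO Tregs (adjusted p 0.169, edgeR), called by DESeq2 and voom. Arhgdib and Arhgdia, the GDP-dissociation inhibitors that hold Rac in the cytosol, had the highest levels, 1332 and 461 TPM, with log2 differences between cKO and WT of -0.14 and -0.12 with DMαKG and -0.19 and 0.19 with vehicle.

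The enzymes that make NADPH, the substrate of the oxidase and a product of the oxidative pentose phosphate pathway that neighbours transketolase, had 0 calls among 14 tested of 15 with edgeR, DESeq2 or voom in any of the 5 comparisons. At an unadjusted p under 0.05 in edgeR there were 2 with DMαKG and 2 with vehicle between the genotypes, 3 for DMαKG in cKO Tregs, 0 in WT Tregs and 1 for the interaction. In the same order, the shares of all genes were 10.4%, 7.29%, 17.3%, 2.73% and 3.64%. Between cKO and WT 7 were higher and 7 lower with DMαKG (median log2 difference -0.01), and 9 higher and 5 lower with vehicle (median 0.10). Nadk, the kinase that makes NADP from NAD, and Pgd, the third enzyme of the oxidative branch, had the highest levels at 88.4 and 76.0 TPM, with log2 differences between cKO and WT of -0.03 and 0.01 with DMαKG and -0.06 and 0.13 with vehicle.

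Downstream, the genes that remove superoxide and peroxide had 0 calls among 16 tested of 17 with edgeR, DESeq2 or voom in any of the 5 comparisons. At an unadjusted p under 0.05 in edgeR there were 2 with DMαKG and 1 with vehicle between the genotypes, 3 for DMαKG in cKO Tregs, 1 in WT Tregs and 0 for the interaction. In the same order, the shares of all genes were 10.4%, 7.29%, 17.3%, 2.73% and 3.64%. With DMαKG 11 were higher and 5 lower in cKO Tregs (median log2 difference 0.15), and with vehicle 10 were higher and 6 lower (median 0.07). Sod1, the cytosolic superoxide dismutase, averaged 473 TPM and Gpx4, the lipid peroxide reductase, 303 TPM, with log2 differences between cKO and WT of 0.24 and 0.43 with DMαKG and 0.11 and 0.26 with vehicle.

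The genes whose pattern was most like that of each subunit were ranked by Pearson correlation of log2 CPM over the 12 libraries, among 9824 genes with a mean of at least 5 CPM. These values share the libraries and the group differences, and are a description. For Ncf1 the closest was Lama5, the laminin α5 chain (r = 0.95, and 0.75 with group means removed). Lama5 averaged 18.3 CPM in cKO and 6.76 CPM in WT Tregs with DMαKG, and 26.4 CPM in cKO and 6.41 CPM in WT Tregs with vehicle. Next came Adam9, a membrane metalloprotease (r = 0.92, and 0.69 with group means removed), at 23.98 CPM in cKO and 13.2 CPM in WT Tregs with DMαKG and 27.2 CPM in cKO and 14.3 CPM in WT Tregs with vehicle. Sigirr, a brake on interleukin 1 receptor signalling, Mtrr, methionine synthase reductase, and Mrpl37, a mitochondrial ribosomal protein, followed at r = 0.89 each, and for Mtrr and Mrpl37 the value with group means removed was 0.30 and 0.28.

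For Cybb the closest were Dhrs3, a retinaldehyde reductase (r = 0.91), S100a11, a calcium-binding protein (0.90), and Cd38, the NAD-consuming ectoenzyme (0.90), followed by Oma1, a mitochondrial protease, and Asb2, a ubiquitin ligase subunit (0.89 each). None of the 5 is on the macrophage and monocyte list, but the cells that these transcripts came from were not tested. For Cyba they were Asl (0.94), Itga7 (0.93), Ctsz (0.93), Pold4 (0.92) and Zfp358 (0.92), and for Ncf4 Adap1 (0.93), Ebi3 (0.91), Kif13b (0.90), Ppp5c (0.89) and Foxred2 (0.89). Ebi3, a subunit of the Treg cytokine interleukin 35, averaged 32.5 CPM in cKO and 20.8 CPM in WT Tregs with DMαKG, and 27.0 CPM in cKO and 19.3 CPM in WT Tregs with vehicle. For Rac2 the closest were Atxn10 (0.85), Gm32687 (0.83), Mdm1 (0.83), Vti1a (0.80) and Ntpcr (0.80).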

How the data were processed

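RNA was extracted with Trizol per the labels' protocols; the kit in the series' design text is NEBNext Ultra RNA. Tools listed in the submitters' processing notes, without role or order, are featureCounts 1.5.0-p3, HISAT2 2.0.5 and DESeq2 1.16.1, and the build is mm10. The authors deposited 1 table of read counts, FPKM and TPM per library, as its headers name them. The read counts are called estimated counts here. The deposited estimated counts are not normalized; 36.0% of values were not whole, and they were rounded. The deposited FPKM values were not used, and the deposited TPM values gave levels per length. Counts were scaled by TMM and filtered by edgeR 4.0.16 in R 4.3.3 (filterByExpr), and all 12 libraries entered 1 robust quasi-likelihood fit of 4 group means (8 residual degrees of freedom). P-values were adjusted over all 12903 genes of a comparison, with a threshold of 0.05. Intervals are 95%, and correlations use log2 CPM with a prior count of 2. The members and lists were chosen with earlier results of these data known. Named genes are the 5 subunits, family genes of at least 1 CPM, the 2 highest members by TPM of each other list and any called, the 5 most alike, and neighbours; those of Ncf1 alone are given. Duoxa2, Duox1, Duox2, Nox1, Rac3 Pla2g4a, Bst2, Ctla4 and the marker genes called by other tools were named after their values were seen, and 1 gene that the rule names is not reported here. Alternatives were DESeq2 size factors, no filter, DESeq2 1.42.0, limma 3.58.1 voom, the compared groups alone, a replicate block, a Y-linked covariate and each library left out. A fit with no robust step, and one without 3 libraries, were chosen after seeing the data. Fits were tested on simulated data.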

Additional observations from a re-analysis of the deposited data

How the results depend on the processing

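The log2 difference of Ncf1 between cKO and WT with DMαKG stayed between 0.83 and 1.02 over all alternatives that kept every library. It no longer passed with the replicate block (0.90, adjusted p 0.196), the Y-linked covariate (1.02, 0.0548), the compared groups alone (0.90, 0.0865) or without the 3 libraries grouped on principal component 1 (0.90, 0.146; added after seeing the data), and 0 subunits were then called; the cause was not tested. It passed with DESeq2 size factors (0.0454), no filter (0.0273), no robust step (0.0465, chosen after seeing the data), DESeq2's Wald test (1.43e-05) and voom (0.0172). All these p-values may test again the rise for which Ncf1 was chosen. They describe the processing and are not independent support. Leaving out 1 library gave 0.86 to 0.99, adjusted p 0.0270 to 0.199, and 0 to 1 subunits called. Whether replicate numbers pair the mice cannot be told from these values. Same-numbered libraries of a treatment correlated at -0.28 to 0.47 over 6 pairs with each group's mean removed, and each mean rests on 3 libraries.

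Reversals concerned uncalled or untested differences, which were near 0 in the main fit except for the Cybb interaction of 0.27. For cKO against WT with DMαKG, Rac2 gave 0.0095 with the covariate and -0.0625 to 0.0135 with 1 library left out. With vehicle, where it had no test, Rac2 gave -0.0147 to 0.0939 with 1 library left out. For DMαKG against vehicle in WT Tregs, Cybb gave -0.0149 with the block, -0.113 with voom and -0.194 without the 3 libraries, and -0.149 to 0.234 with 1 library left out, as Ncf4 gave -0.0332 to 0.0251. In cKO Tregs, Ncf4 gave -0.0090 with the block, -0.0142 without the 3 libraries and -0.0270 to 0.129 with 1 left out. Rac2 there gave 0.0081 with DESeq2 size factors and with DESeq2, 0.0044 without the filter, 0.0549 with the covariate, 0.0030 with the compared groups alone, 0.0197 with voom and -0.0182 to 0.0421 with 1 left out. For Ncf1, given with no test, the covariate moved the difference of DMαKG against vehicle in cKO Tregs from -0.68 to -0.51 and the interaction from -0.56 to -0.36. The interaction of Cybb was -0.112 with the covariate, and that of Ncf4 -0.0216 to 0.138 with 1 left out. The Cybb difference between cKO and WT with DMαKG kept its sign, -0.97 to -0.51, and passed in none of the fits.

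Genes called between cKO and WT with DMαKG numbered 24, and 21 with DESeq2 size factors, 30 without the filter, 9 with no robust step, 0 with the block, 2 with the covariate, 3 with the compared groups alone, 1 without the 3 libraries, 143 with DESeq2, 237 with voom and 1 to 33 with 1 library left out. Counts of 15700000 to 18900000 per library leave the Duox genes, at or near 0, without a test.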
